A study of Mus musculus with 19 samples.

Results

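Liver microRNAs (miRNAs) of mice given the middle dose of dibenz[a,h]anthracene (DB[a,h]A) were set against those of mice given the vehicle. The comparison took the 4 arrays whose titles give a dose of 12.5 mg/kg and the 5 whose titles give 0 mg/kg, 9 of the 19 arrays of the study, and covered the 696 mouse miRNAs of the array. The animals were male MutaMouse mice (transgenic mouse strain 40.6) of 10 weeks, which carry a transgene for scoring mutations. For 28 days they received a daily gavage of olive oil, either with DB[a,h]A at 12.5 mg/kg of body weight or without it. Livers were taken 3 days after the last gavage and frozen. Each array carried total RNA of a part of one liver, so every value is a mean over the cells of that piece. The other groups, given 6.25 and 25 mg/kg with 5 arrays each, entered the fit to share its estimate of spread. The labels give 5 animals per dose, and 4 arrays of the middle dose were analysed here. Each array stands for a mouse of its own per the labels, so p-values measure the spread between mice together with that of the assay.

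DB[a,h]A is a polycyclic aromatic hydrocarbon that binds the aryl hydrocarbon receptor and is oxidized by cytochrome P450 enzymes to products that form DNA adducts. DNA damage activates p53, which induces transcription of the miR-34 genes among many others. A mature miRNA guides Argonaute proteins to messenger RNAs that pair with its seed, the stretch from base 2 to base 8, so miRNAs with one seed share many targets. In liver, miR-122 is the most abundant miRNA of hepatocytes.

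Of 36 miRNA names looked up, 35 matched a mature sequence of RefSeq on build GRCm38.p6, and miR-23b was not matched. The sequences below are those of the miRNAs that passed the test, with relatives of the same seed or cluster that did not, and capitals mark the seed. The first 4 share their seed with no other miRNA whose sequence is printed here. The miR-34 relatives named further on are not among those printed. The next 4 come from the 2 clusters of miR-23, miR-27 and miR-24, of which the one on chromosome 13 also holds miR-23b, and the last 7 form 3 seed families.
miR-34a: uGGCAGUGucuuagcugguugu
miR-139-5p: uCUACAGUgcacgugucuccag
miR-223: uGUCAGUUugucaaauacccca
miR-652: aAUGGCGCcacuaggguugug
miR-23a: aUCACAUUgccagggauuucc
miR-27a: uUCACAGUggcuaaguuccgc
miR-27b: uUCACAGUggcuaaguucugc
miR-24: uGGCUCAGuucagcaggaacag
miR-15b: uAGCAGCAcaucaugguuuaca
miR-15a: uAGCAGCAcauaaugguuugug
miR-16: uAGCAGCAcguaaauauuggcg
miR-92a: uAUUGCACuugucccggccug
miR-25: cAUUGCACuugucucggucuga
miR-93: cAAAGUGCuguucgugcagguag
miR-106b: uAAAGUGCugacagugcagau

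The miR-34a sequence lies at chr4:150068473-150068494 on the plus strand, outside the other genes of the RefSeq gene table. The miR-139-5p sequence at chr7:101475382-101475403 lies within Pde2a, the miR-652 sequence at chrX:142739060-142739080 within Tmem164, and the miR-223 sequence at chrX:96242884-96242905 within the long noncoding RNA gene F630028O10Rik. The hairpins of miR-23a, miR-27a and miR-24-2 span 404 bases at chr8:84208518-84208921. Those of miR-23b, miR-27b and miR-24-1 span 792 bases at chr13:63300484-63301275, within Aopep. miR-27a and miR-27b differ by 1 base, C19U counted from the 5′ end. The miR-93, miR-25 and miR-106b hairpins span 498 bases at chr5:138165321-138165818, within Mcm7, and those of miR-15b and miR-16-2 span 225 bases at chr3:69009772-69009996, within Smc4.

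Fewer miRNAs were detected on the middle dose arrays than on the controls, a difference that did not pass after adjustment. The scanner software detected 181, 204, 205, 204 and 209 miRNAs on control arrays 1, 10, 17, 19 and 22, and 169, 168, 157 and 184 on middle dose arrays 5, 6, 14 and 20. The difference of -31.1 had an exact two-sided permutation p of 0.0238 (0.0794 adjusted over 5 measures of the array), and within slides it was -27.2 (exact permutation p = 0.0417, adjusted 0.104). The spike-in of the labelling step differed by -0.47 on the log2 scale (exact permutation p = 0.0317, adjusted 0.0794) and by -0.33 within slides. The hybridization spike-in differed by -0.12 (exact permutation p = 0.722, adjusted 0.722) and by 0.10 within slides. The 75th percentile over all probes had a mean of 3.17 units of intensity on the controls and 2.79 on the middle dose arrays. It differed by -0.38 units (exact permutation p = 0.468, adjusted 0.585) and by 0.02 units within slides (exact permutation p = 0.917). After adjustment 0 of the 5 measures passed. Within slides the smallest exact permutation p over the 24 arrangements is 0.0417, which the detected count and the labelling spike-in both reached. An adjusted p under 0.05 there would need all 5 measures to reach it, so the within-slide test could hardly pass. The arrays lay on 3 slides: controls 1, 10 and 17, 19, 22 on slides 1, 2 and 3, and middle dose arrays 5 and 6, 14 and 20 on the same slides. On slides 1 and 2 the control sat in row 1 of the slide and the middle dose arrays in row 2, while on slide 3 array 20 sat in row 1 with controls 17 and 19. A level below is the log2 of a signal divided by its array's 75th percentile, taken over the 220 probes detected on all arrays, with a floor at -4.79. The controls correlated pairwise at r of 0.967 to 0.997 across miRNAs and the middle dose arrays at 0.956 to 0.992.

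The markers of liver were present: all 14 miRNAs of the hepatocyte list were tested, and miR-122 was the brightest miRNA of the controls. Of the 8 markers of pancreas and muscle, 4 were detected on no array: miR-216a, miR-216b, miR-217 and miR-375. The muscle miRNAs miR-1 and miR-133b sat at the floor on 4 of 5 controls, but miR-1 read 1.19 on control 22 and 0.74 on middle dose array 20, and miR-133b read -0.68 and -0.98 there. Those arrays thus carried muscle markers that the other 7 carried little of or not at all.

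miR-34a rose 8.63-fold at the middle dose (95% interval 5.50 to 13.6; log2 3.11, SE 0.31). Its scanned signal before any scaling was 16.3, 17.4, 28.3, 15.6 and 31.6 units of intensity on controls 1, 10, 17, 19 and 22, and 185, 132, 151 and 99.7 on middle dose arrays 5, 6, 14 and 20. Its scaled level was -3.75, -4.31, -3.97, -4.21 and -3.96 on the controls and 0.08, -0.41, -0.45 and -1.61 on the dosed arrays. All 4 dosed arrays were far above all 5 controls, and array 20 was the lowest of the 4. The groups were at -4.04 ± 0.22 (SD, n = 5) and -0.60 ± 0.71 (SD, n = 4), so the dosed animals differed more among themselves than the controls did. miR-34a is a direct transcriptional target of p53 and represses regulators of the cell cycle and of survival.

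The limma adjusted p of miR-34a was 7.56e-06, after Benjamini-Hochberg adjustment over 185 tested miRNAs. The exact two-sided permutation p was 0.00794 over 126 arrangements and 0.0417 over the 24 within slides, in both cases the smallest the arrays allow. Within slides 1, 2 and 3 the difference was 3.58, 3.86 and 2.44, and between arrays of slide 3 row 1 it was 2.48. With the slide row as a further block it was 2.99 (limma adjusted p = 0.000125). A second probe of miR-34a gave 2.98. Under 40 other settings, which included scalings and left out arrays, the change lay between 1.56 and 3.61 and the highest limma adjusted p was 0.00311.

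Including miR-34a, 11 of 185 tested miRNAs were higher at the middle dose by limma at an adjusted p under 0.05, which is 5.95% of those tested, and 0 were lower. With no adjustment, 46 were higher (24.9%) and 6 lower (3.24%) at the same threshold. Next to miR-34a stood miR-139-5p, an intronic miRNA present in endothelium among other cell types, at 1.43-fold (95% interval 1.24 to 1.65) and miR-223, abundant in myeloid cells, at 1.40-fold (1.21 to 1.62). The remaining 8 were miR-15b, miR-23a, miR-23b, miR-27a, miR-27b, miR-92a, miR-93 and miR-652, at 1.18- to 1.30-fold. Direction depended on the scaling for all 10 of these: 10 were above control with the main scaling, 1 with the 75th percentile taken over all probes, and 0 with no scaling. The percentile over all probes was only 2.30 to 4.02 units of intensity on the controls and 1.96 to 3.55 on the dosed arrays. It takes in undetected probes, since 453 of the 696 miRNAs were detected on no array. In 9 of the 185, all middle dose arrays lay above all controls (4.86% of those tested), and in 2 all lay below (1.08%).

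**Figure D1:**
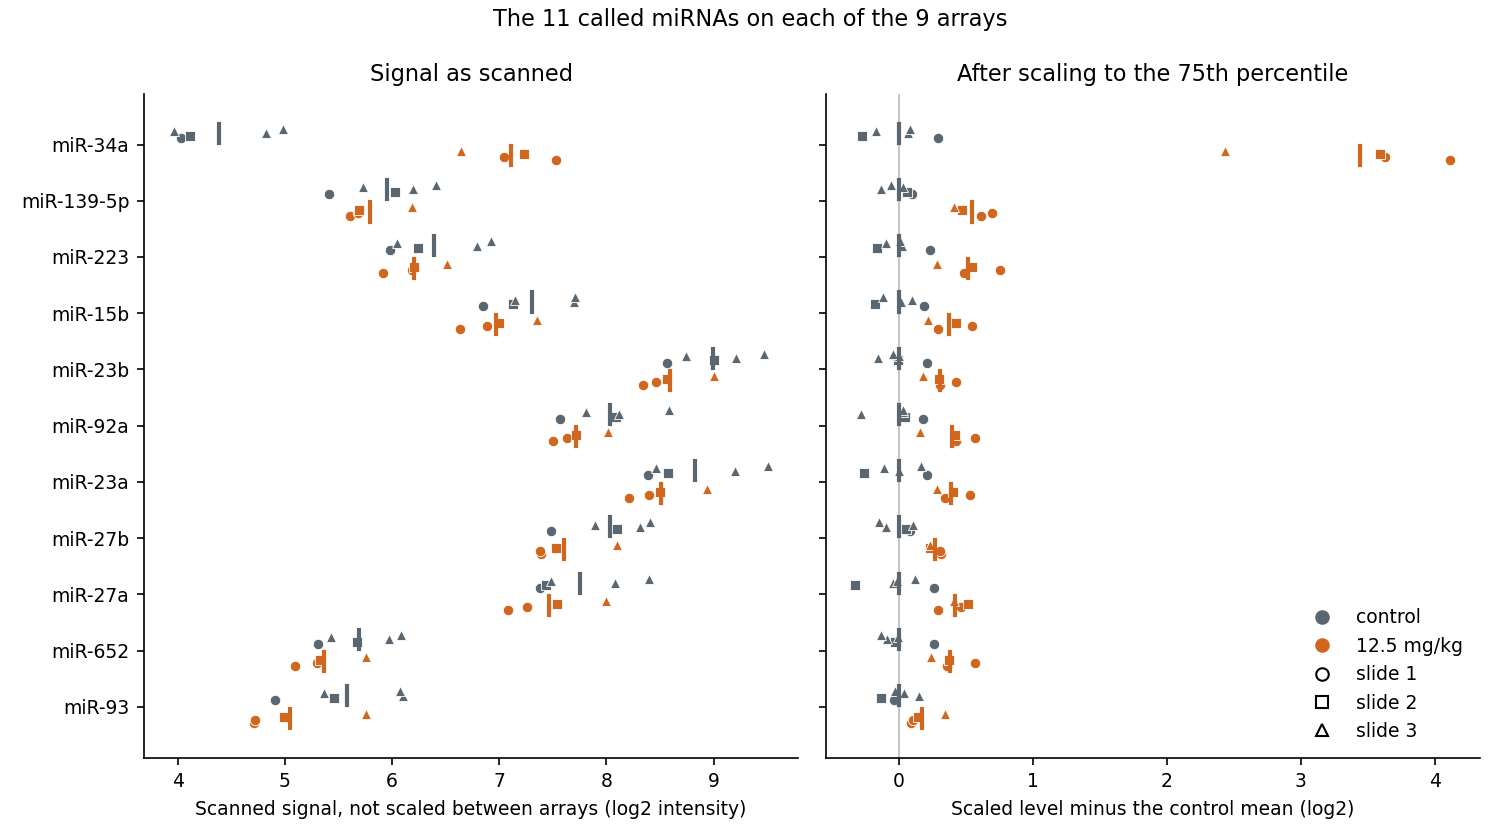
The 11 miRNAs that passed the test, on the 5 control (grey) and 4 middle dose arrays (orange), with a symbol for each slide and a bar at each group mean. The left axis is the log2 scanned intensity and the right axis the scaled level minus the control mean: miR-34a stands apart in both, while the other 10 lie higher at the middle dose in the scaled levels and not in the scanned signal.

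The scanned signals of the other 10 showed what the scaling did. miR-139-5p gave 42.5, 65.2, 73.3, 53.2 and 85.2 units on controls 1, 10, 17, 19 and 22 and 48.7, 51.4, 51.7 and 73.0 on dosed arrays 5, 6, 14 and 20, so the groups overlapped. miR-23a gave 336 to 730 on the controls and 295 to 491 on the dosed arrays. miR-122 gave 24864 to 41755 on the controls and 19060 to 29552 on the dosed arrays. The 75th percentile that each signal was divided by was 219 to 491 on the controls and 176 to 304 on the dosed arrays. Relative to it, the signals of the 10 were higher on the dosed arrays, and in themselves they were not.

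miR-139-5p stood at -2.37, -2.40, -2.60, -2.44 and -2.53 on the controls and at -1.85, -1.77, -1.99 and -2.06 on the dosed arrays after scaling, with no overlap. The difference was 0.51 (SE 0.10, limma adjusted p = 0.00809), and 0.56, 0.41 and 0.46 within slides 1, 2 and 3. With the slide row as a block it was 0.54 (limma adjusted p = 0.0268). miR-223 stood between -2.19 and -1.79 on the controls and at -1.54, -1.27, -1.48 and -1.74 on the dosed arrays, with control 1 closest to them. Its difference was 0.48 (SE 0.10, limma adjusted p = 0.0146), and 0.42 with the row block (limma adjusted p = 0.0799). In RNA of whole tissue, more cells of a type and more RNA per cell cannot be told apart.

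The miR-23, miR-27 and miR-24 clusters held 4 of the 11 calls. These clusters give miRNAs with roles in endothelial growth, lipid handling and cell proliferation. Of the 5 tested mature miRNAs of the list, 4 passed the test, beside 5.95% of all tested miRNAs. These were miR-27a at 0.38 (SE 0.10), miR-23a at 0.34 (SE 0.09), miR-27b at 0.28 (SE 0.08) and miR-23b at 0.26 (SE 0.06). Members of a cluster share a precursor, and miR-27a and miR-27b differ by 1 base, so the 4 are not independent. The fifth, miR-24, was at 0.21 (SE 0.06, limma adjusted p = 0.0633). The median of the list was 0.28, beside 0.14 over all tested miRNAs. Under no scaling and the 75th percentile over all probes, 0 of the 5 were above control, and with quantile normalization 5 were.

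miR-23a read 0.61, 0.15, 0.41, 0.30 and 0.57 on the controls and 0.75, 0.94, 0.81 and 0.69 on the dosed arrays. miR-27b read -0.30, -0.33, -0.48, -0.27 and -0.53 on the controls and -0.07, -0.07, -0.15 and -0.15 on the dosed arrays. Both showed no overlap, by gaps smaller than the range of the controls. miR-27a on control 10, at -0.99, was the lowest control value and its slide gave the largest difference, 0.84 against 0.11 on slide 1 and 0.39 on slide 3. Differences taken within an array are the same under any scaling that uses 1 factor per array, which quantile normalization does not: miR-23a minus miR-24 was 0.10 to 0.33 on the controls and 0.30 to 0.39 on the dosed arrays, and miR-27b minus miR-23b was -1.09 to -0.85 and -1.08 to -0.90. In both of these differences the groups overlapped.

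The seed families of miR-15b, miR-92a and miR-93 each had 1 member that passed. In the family with seed AGCAGCA, which represses cyclins and Bcl2, miR-15b was at 0.33 (SE 0.08, limma adjusted p = 0.0319), while miR-15a was at -0.07, miR-16 at 0.01 and miR-322 at 0.41 (SE 0.15, limma adjusted p = 0.0887). Also tested were miR-195 at 0.28 and miR-497 at 0.24 (limma adjusted p = 0.236 and 0.309), so that 5 of 6 members had a positive difference, with a median of 0.26 beside 0.14 over all tested miRNAs. miR-15b minus miR-15a within an array was -2.64 to -2.42 on the controls and -2.39 to -1.90 on the dosed arrays, with no overlap. No other pair of a call and a relative by seed or cluster had all 4 dosed arrays above all controls. The pair was formed because miR-15b passed, so its difference is no separate support for that call. miR-15b and miR-16 come from neighbouring hairpins, and their difference was -1.62 to -0.92 on the controls and -1.30 to -0.57 on the dosed arrays, with 3 of 4 above all controls. miR-16 is also made from a second locus on chromosome 14.

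In the family with seed AUUGCAC, miR-92a was at 0.34 (SE 0.08, limma adjusted p = 0.0319), miR-25 at 0.25 (SE 0.08, limma adjusted p = 0.0777) and miR-92b at 0.68 (SE 0.23, limma adjusted p = 0.0777). Of the miR-17-92 cluster and its paralogs, which are tied to cell division, 2 of 9 tested members passed, miR-92a and miR-93, beside 5.95% of all tested miRNAs, and the median was 0.14, the same as over all tested miRNAs. miR-92a minus miR-19b within an array was -0.82 to -0.47 on the controls and -0.66 to -0.30 on the dosed arrays. miR-93 at 0.24 (SE 0.07, limma adjusted p = 0.0421) was the only call for which just 1 dosed array, array 20, lay above all controls. Its cluster mates miR-25 and miR-106b were at 0.25 and 0.14 (limma adjusted p = 0.0777 and 0.234).

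**Figure D2:**
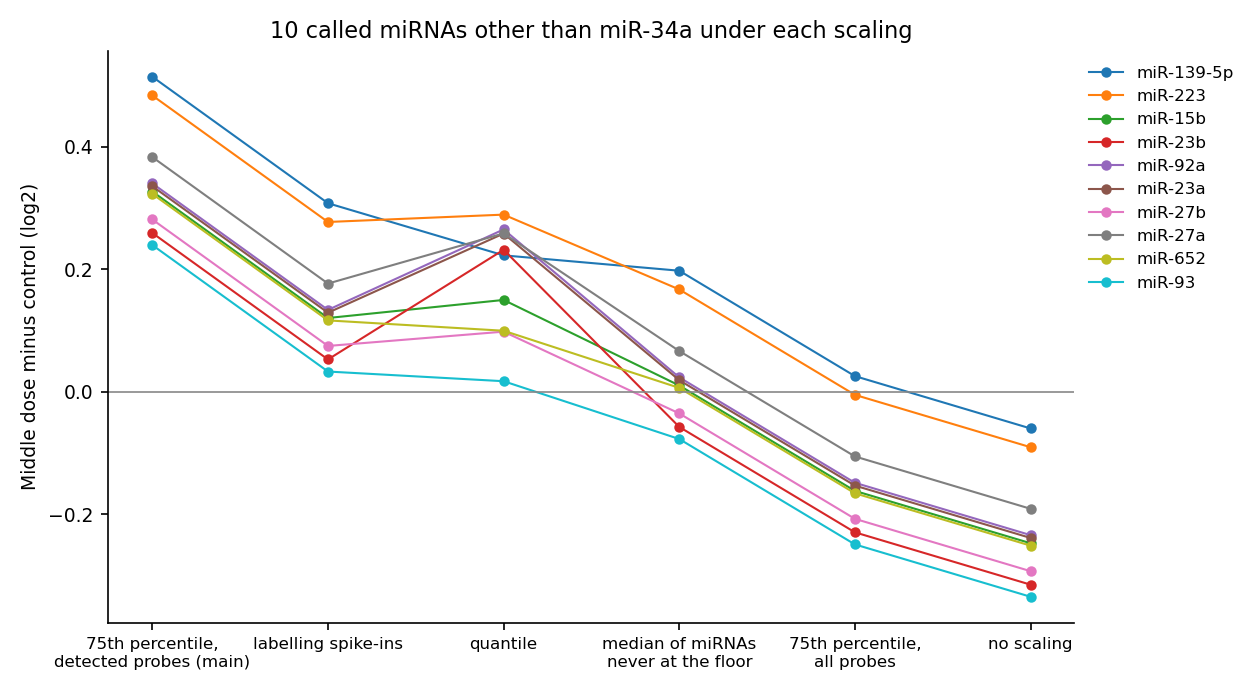
Difference between middle dose and control (log2) of the 10 called miRNAs other than miR-34a under 6 scalings between arrays, a line per miRNA. miR-139-5p runs from 0.51 with the main scaling to -0.06 with none, and all 10 lie below 0 without scaling.

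How many miRNAs passed, and in which direction, followed the scaling. Where the main scaling gave 11 higher and 0 lower, the 75th percentile over all probes gave 1 and 38, the median of the 125 miRNAs never at the floor gave 1 and 35, quantile normalization 1 and 9, no scaling 1 and 1, and the labelling spike-ins 1 and 0. The 1 higher was miR-34a in each of these. The median shift of all tested miRNAs was 0.14 with the main scaling and -0.21, -0.08, -0.01, -0.25 and -0.01 with these others in that order. Of the 10 others, the number above the median of all tested miRNAs was 10 with the main scaling, spike-ins, quantile normalization or the median of the 125, 8 with the 75th percentile over all probes, 6 with no scaling and 0 with normexp background correction. Set against the median difference of the 125 miRNAs never at the floor, it was 4 with normexp and 10 with each of the others, no scaling included. Scaling by 1 factor per array, or by none, shifts these 125 and the 10 calls alike. The 10 calls were picked with the main scaling, so their place was fixed in advance for all of these but quantile normalization. It is no separate support for them. Normexp gave miR-139-5p a difference of 0.59, beside a median of 0.60 over all tested miRNAs.

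Slide row and single arrays also moved the count. With the slide row as a further block, 2 miRNAs passed, miR-34a and miR-139-5p. Leaving out control 10, middle dose array 6 or middle dose array 14 left 2 each, and leaving out control 17 left 3. Without control 1 the count was 36. It was 6 without control 22, middle dose array 20 or low dose array 11, 12 or 18, and 18 without high dose array 16. miR-34a and miR-139-5p were called under every one of these omissions. The part of signal level, slide row or control 1 in the small differences was not tested further.

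**Figure D3:**
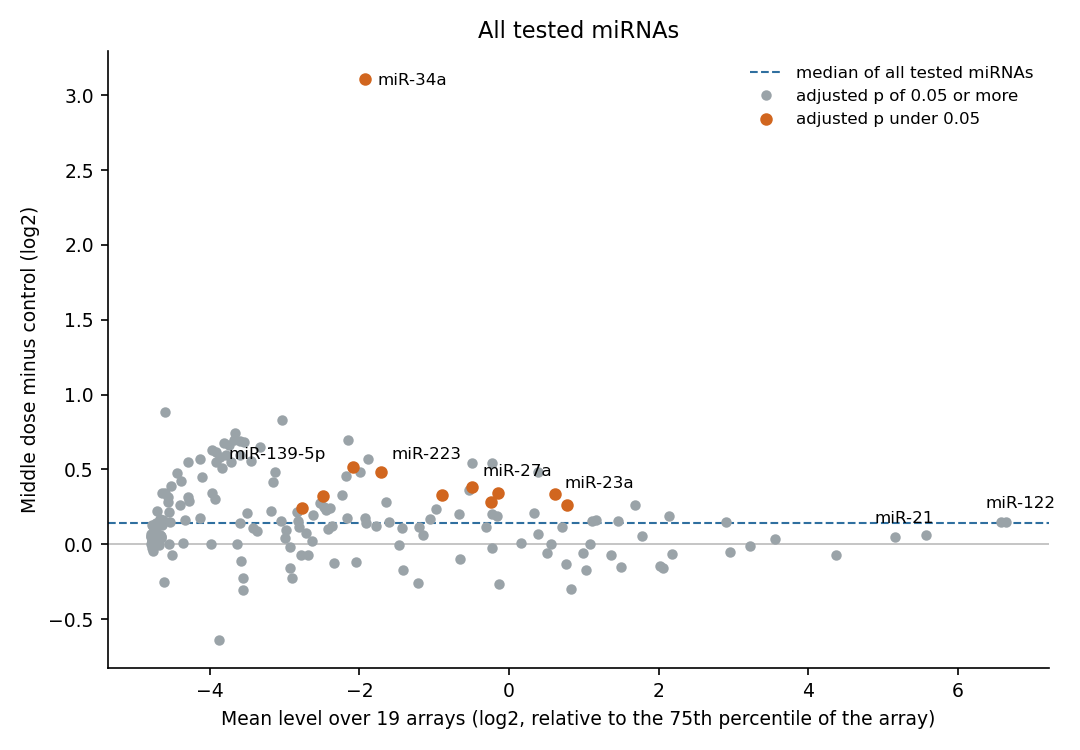
Difference between middle dose and control (log2) against the mean level over 19 arrays for the 185 tested miRNAs, with those that passed the test in orange and the median of 0.14 as a dashed line. miR-34a at 3.11 is far above all others, the other 10 calls lie between 0.24 and 0.51, and dim miRNAs scatter more widely.

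Level bore on the differences too. Of the 185 tested miRNAs 144 had a positive difference. In 4 groups of like size by mean level, from dimmest to brightest, the median difference was 0.06, 0.42, 0.16 and 0.07, and the calls fell in the 2 brighter groups, 6 and 5. Beside the calls, the dim miR-877* differed by 0.70 (SE 0.22, limma adjusted p = 0.0711) and miR-1944 by 0.57 (SE 0.17, limma adjusted p = 0.0577), each with 3 of 4 dosed arrays above all controls. let-7e, at 0.46 (SE 0.13, limma adjusted p = 0.0538), read 0.23 to 1.01 above the controls within slides, with the largest value on slide 2. It had the smallest p among miRNAs that missed the threshold, and its sequence differs from that of let-7a by 1 base, G9U from the 5′ end. let-7a differed by 0.15 (SE 0.10, limma adjusted p = 0.309), and of 9 tested members of the let-7 family 0 passed.

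No miRNA was lower by the test, and 6 had the smallest p among those below control. miR-101b, a hepatocyte miRNA that represses the methyltransferase Ezh2, read 1.15, 1.00, 1.06, 0.85 and 0.88 on the controls and 0.81, 0.75, 0.43 and 0.83 on the dosed arrays, with all 4 below all controls. Its difference was -0.30 (SE 0.11, limma adjusted p = 0.0887), and that of miR-101a, its near copy, was -0.27 (SE 0.09, limma adjusted p = 0.0766). miR-378* differed by -0.25 (SE 0.08, limma adjusted p = 0.0745), but 2 of the 4 dosed arrays were at the floor. miR-31 was at -0.31, miR-30e at -0.26 and miR-29b, a repressor of collagen genes, at -0.16, each with a limma adjusted p from 0.114 to 0.120.

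The miR-30 family differed by slide. miR-30e read -1.07, -1.11, -0.91, -0.92 and -0.84 on the controls and -1.69, -1.66, -1.24 and -0.97 on dosed arrays 5, 6, 14 and 20. Both arrays of slide 1 were low, and array 20 lay within the controls. miR-30c read -2.14 and -2.05 on the slide 1 arrays and -1.08 and -1.15 on the others, above all controls, whose range was -1.62 to -1.20. Of 5 tested members 0 passed, and the median was -0.12.

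The p53 list gave no second call. Of its 7 tested members 1 passed, miR-34a, beside 5.95% of all tested miRNAs, and the median was -0.01. The miR-34 relatives miR-34b-5p, miR-34b-3p, miR-34c and miR-34c* were detected on no array, as were miR-215 and miR-145. miR-192, miR-194 and miR-107 differed by -0.01, -0.06 and -0.02, with limma adjusted p from 0.685 to 0.993. miR-143, also found in smooth muscle, read -1.65 and -1.64 on dosed arrays 14 and 20 against -3.54 to -2.82 on the controls and -3.57 and -2.96 on arrays 5 and 6, for a difference of 0.83 (SE 0.42, limma adjusted p = 0.209).

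Of 14 tested hepatocyte miRNAs 0 passed, 10 were below control, and the median was -0.10. miR-122 stood at 6.82, 6.43, 6.52, 6.49 and 6.41 on the controls and 6.76, 6.90, 6.63 and 6.60 on the dosed arrays. Its difference was 0.15 (SE 0.12, limma adjusted p = 0.430), with overlap through control 1. miR-21, often raised in injured liver, differed by 0.05 (SE 0.17, limma adjusted p = 0.893). The largest difference below 0 among the 185, chosen after its values were seen, was that of miR-802 at -0.64 (SE 0.37, limma adjusted p = 0.261). Of the aryl hydrocarbon receptor list, miR-96 was at 0.58 (SE 0.26, limma adjusted p = 0.155). The listed miR-212 is miR-212-3p on the array and was matched later. Close to the floor, it was at 0.02 (SE 0.07, limma adjusted p = 0.919).

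**Figure D4:**
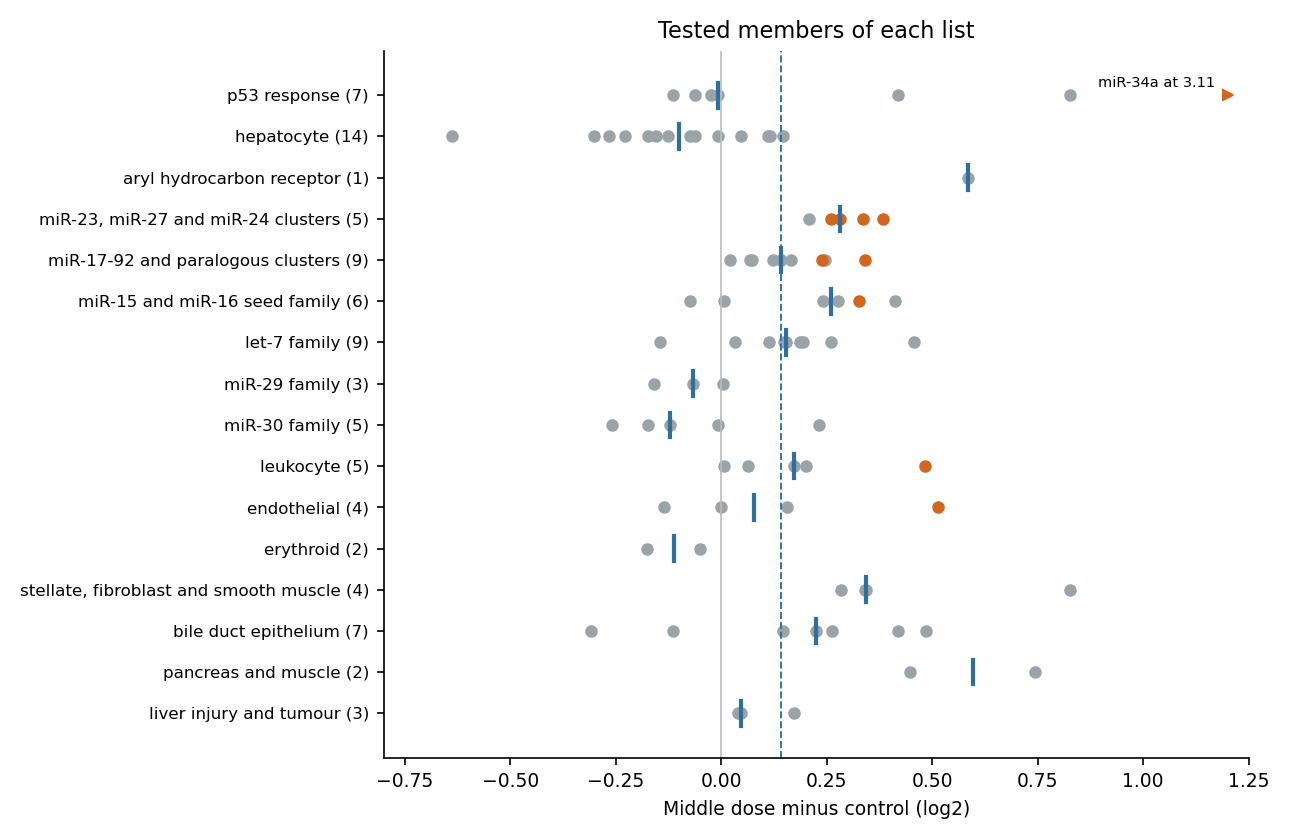
Difference between middle dose and control (log2) of each tested member of the 16 lists, with the number tested in parentheses, orange where the adjusted p is under 0.05, a bar at the list's median and a dashed line at 0.14, the median of all tested miRNAs. miR-34a is drawn at the right edge with its value, 3.11. miR-212-3p, matched later to the listed miR-212, is neither drawn nor counted.

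Markers of other cells gave 2 calls, beside 5.95% of all tested miRNAs that passed. Of 5 tested leukocyte miRNAs 1 passed, miR-223, and miR-142-3p and miR-146a were at 0.20 and 0.17 (limma adjusted p = 0.345 and 0.379). The remaining members, miR-342-3p and miR-142-5p, were at 0.06 and 0.01. The summed linear level of the list was 1.19 to 1.63 on the controls and 1.47 to 1.82 on the dosed arrays, and miR-150, miR-155 and miR-146b were detected on no array. Of 4 endothelial miRNAs 1 passed, miR-139-5p, while miR-126-3p, the endothelial miRNA proper, was at 0.16 (limma adjusted p = 0.187). The other 2 were below control, miR-130a at -0.13 and miR-126-5p, close to the floor, at -0.001. The median of the list was 0.08, beside 0.14 over all tested miRNAs. The endothelial sum was 4.02 to 5.36 on the controls and 4.48 to 5.04 on the dosed arrays, which overlap. Of 4 stromal miRNAs 0 passed, with a median of 0.34 and a sum of 0.45 to 0.67 on the controls and 0.56 to 1.00 on the dosed arrays. The erythroid miRNAs miR-451 and miR-144 were at -0.05 and -0.17, with limma adjusted p of 0.930 and 0.762. The part of cell makeup in the calls was not tested.

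Epithelial miRNAs of the miR-200 family were high on dosed arrays 6 and 14 and no higher than the controls on 5 and 20. This pattern was chosen after the values were seen and has no test. miR-200b read -2.93, -4.38, -3.95, -3.58 and -3.74 on the controls and -3.87, -1.37, -1.85 and -4.02 on arrays 5, 6, 14 and 20. miR-200c, miR-141 and miR-429 were at the floor on all 5 controls and on arrays 5 and 20, and read -2.91, -3.81 and -3.30 on array 6 and -3.79, -4.37 and -4.00 on array 14. All 5 were higher on arrays 6 and 14 than on arrays 5 and 20. Their hairpins form a group of 3 at chr4:156053905-156055750 and one of 2 at chr6:124717914-124718390. These miRNAs hold epithelia in their state by repressing Zeb factors, and in liver they mark bile duct cells. Their mature sequences carry either of 2 seeds, AAUACUG and AACACUG, that differ in 1 base.
miR-200b: uAAUACUGccugguaaugauga
miR-429: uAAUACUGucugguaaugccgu
miR-200c: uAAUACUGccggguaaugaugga
miR-200a: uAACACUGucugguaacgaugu
miR-141: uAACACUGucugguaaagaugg
Above the floor, miR-200c was found on 0 of 5 controls, 1 of 5 low dose, 2 of 4 middle dose and 1 of 5 high dose arrays. The bile duct list as a whole had a median of 0.22 and 0 calls among 7. miR-31 and miR-203, its other members, lay within or below the range of the controls on arrays 6 and 14.

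Against the neighbouring doses, which share the controls when each is set against vehicle, miR-34a was the one difference. Against control the low dose gave 1.52, the middle dose 3.11 and the high dose 3.49. The middle dose lay above the low dose by 1.59 (95% interval 0.95 to 2.23, limma adjusted p = 0.0174), the 1 call among 185 tested (0.541%). The middle dose differed from the high dose by -0.38 (95% interval -1.01 to 0.25, limma adjusted p = 0.827), and 0 of 185 passed in that comparison by limma, with 10 higher and 2 lower at an unadjusted p under 0.05. The call against the low dose was lost without middle dose array 5 or 14 or low dose array 11, 12, 18 or 24, each of which left 0. It was lost too with the slide row as a block and without the slide block.

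Against control, in order of dose, miR-139-5p differed by 0.50, 0.51 and 0.47, with limma adjusted p of 0.00691, 0.00809 and 0.00832. Its difference between middle and low dose was 0.02 (95% interval -0.19 to 0.22) and between middle and high 0.04 (-0.16 to 0.24). miR-223 differed from control by 0.37, 0.48 and 0.39. miR-27a was at 0.23, 0.38 and 0.04 against control, and its middle minus high difference was 0.35 (95% interval 0.13 to 0.56, limma adjusted p = 0.314), which did not pass.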

How the data were processed

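Total RNA of 100 ng per liver was labelled with Cyanine 3-pCp and hybridized to one-colour Agilent miRNA arrays, per the labels' protocols. Per the file headers, Agilent Feature Extraction 10.7.3.1 gave a background-subtracted signal intensity for each spot, with no scaling between arrays. The authors' deposited value table is on a log2 scale of unstated normalization, with column medians between 5.04 and 5.06, and served as an alternative only.

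After removal of control and outlier spots, a probe's value was the mean of its 5 to 20 spots (1937 probes). Division by the 75th percentile of 220 probes detected on all arrays scaled the arrays. Values under the floor of -4.79 (log2) were raised to it, and the brightest probe stood for a miRNA. Of 696 miRNAs, 208 were detected on at least 4 arrays, of which 23 sat at the floor on all 19 arrays and had no test, which left 185. The fit used limma 3.58.1 in R 4.3.3 (lmFit, eBayes) on 19 arrays with slide as a block and Benjamini-Hochberg adjustment. The number of arrays limits the precision. The procedure was tested on simulated data. These were made as scaled levels, without signal differences between whole arrays, a floor or an effect of slide row. They do not bear on the choice of scaling or of the row block.

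Named miRNAs were all that passed, the 6 next by p and the 6 smallest p below control, tested miRNAs sharing a seed or cluster with a call, up to 4 brightest of each of 16 lists, and miR-34a, miR-122 and miR-21; others are said to be chosen later. Members and lists were chosen with earlier results of these data known. The scanner files held no mean signal, so normexp (offset 50) ran on the median signal. Alternatives covered scaling, background, floor, filters, probe summary, slide and row, array signal and each array left out. Array names without an arm were matched to the arm that carries that name in current nomenclature.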

Additional observations from a re-analysis of the deposited data

Results flagged for a closer look

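Values that stood apart from the rest of their group by Dixon's gap ratio were looked for in the named miRNAs and the array measures. Of 142 groups tested 14 had one, where chance gives about 1 in 20 for a single group. The groups come from the same 9 arrays and are not independent, so the count was not tested against that rate. Control 1 held 7 of them. It was the highest control in miR-214 (-4.60), miR-106b (-1.61), miR-122 (6.82), let-7f (3.58) and miR-192 (3.40), and it had the fewest detected miRNAs (181) and the lowest hybridization spike-in signal (14.25 on the log2 scale). The muscle miRNA miR-1 was highest on control 22 (1.19) and on middle dose array 20 (0.74), and so was miR-133b (-0.68 and -0.98). miR-142-3p was lowest on middle dose array 5 (-0.52). miR-126-5p, close to the floor, was highest on control 17 (-4.73) and on middle dose array 14 (-4.77).

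The difference of miR-34a between the middle and low doses, 1.59 on the log2 scale, passed the limma test of the difference itself.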

How the results depend on the processing

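Across 21 alternatives and 19 arrays left out in turn, miR-34a kept its direction and its side of the threshold, between 1.56 and 3.61 (2.85 to 3.35 with an array left out). The 11 higher calls became 1 with the 75th percentile over all probes, no scaling, quantile normalization, spike-in scaling, normexp, the array signal as a covariate, the total gene signal, the median of miRNAs never at the floor, and without slide 3. They became 2 with the 9 arrays alone or with the slide row, 3 with the deposited table or without slide 2, 5 without slide 1, 22 with no slide block and 21 with slide as a random block. The range was 2 to 36 with an array left out. The 0 lower calls became 38 with all probes, 35 with the median of miRNAs never at the floor, 10 with the total gene signal, 9 with quantile normalization, 4 with the deposited table, and 1 with no scaling, the floor 4 times higher or a random slide block (0 to 1 with an array left out). The 1 call against the low dose became 52 with all probes, 4 with the total gene signal, 3 with quantile normalization, 2 without slide 1, and 0 with no scaling, spike-ins, normexp, the covariate, the deposited table, the row block, no slide block, or without slide 2 or 3 (0 to 1 with an array left out). Against the high dose 0 calls became 1 without slide 1 (0 to 1 with an array left out). Keeping the 23 floored miRNAs in the fit, an alternative added after the data were seen like the total gene signal and the median of miRNAs never at the floor, gave 12 higher.

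Of the 66 miRNAs named, the sign turned for 38 with no scaling, 36 with the 75th percentile over all probes, 25 with the median of miRNAs never at the floor, 18 with normexp, 17 with spike-ins, 11 with the deposited table and 14 of 65 with quantile normalization. Values follow for those that passed the test under the main setting or the alternative. With the 75th percentile over all probes these were miR-223 (-0.0052), miR-15b (-0.16), miR-23b (-0.23), miR-92a (-0.15), miR-23a (-0.15), miR-27b (-0.21), miR-27a (-0.11), miR-652 (-0.17), miR-93 (-0.25), let-7f (-0.46), miR-16 (-0.48) and miR-29c (-0.49). With no scaling they were miR-139-5p (-0.060), miR-223 (-0.091), miR-15b (-0.25), miR-23b (-0.32), miR-92a (-0.23), miR-23a (-0.24), miR-27b (-0.29), miR-27a (-0.19), miR-652 (-0.25) and miR-93 (-0.34). With the median of miRNAs never at the floor they were miR-23b (-0.058), miR-27b (-0.036), miR-93 (-0.077), let-7f (-0.28), miR-19a (-0.30), miR-16 (-0.31) and miR-29c (-0.31), and with the deposited table miR-93 (-0.041). The cause was not tested. No paired analysis was possible because the sample numbers in the titles are unique to each array and groups share none.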
